A study of Homo sapiens with 8 samples.

Results

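The human osteosarcoma cell line Saos-2 was studied. The WNT pathway was followed in these cells through 39 genes taken from textbook knowledge of the pathway: ligands and the enzyme that readies them for secretion, Frizzled receptors, co-receptors, secreted antagonists, cytoplasmic transducers, the beta-catenin destruction complex with beta-catenin, and the TCF and LEF factors. They were chosen by name and role, among 19775 genes with a probe set of their own. Of the 39, 36 were measured and 31 were bright enough to be tested, with 12063 genes tested in all. Cells were left untreated (3 arrays, replicates 1, 2 and 3), or received a compound labelled Prima for 6 h (3 arrays, replicates 1, 2 and 3) or for 12 h (2 arrays, replicates 1 and 3). All 8 arrays carry RNA of the same line, which every sample label marks as Null, and no vehicle arm, dose or culture is named in the sources used here. The design text asks how expression across the transcriptome responds to the compound in these cells. The labels do not say that the replicates are separate cultures, and the spread that p-values rest on may thus be technical.

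WNT proteins are lipid-modified secreted ligands that bind Frizzled receptors together with a co-receptor. Without a ligand, a cytoplasmic complex built on AXIN and APC lets GSK3B mark beta-catenin for destruction. With a ligand and LRP5 or LRP6, Dishevelled proteins hold that complex back, and beta-catenin reaches TCF and LEF factors on their target genes. Other ligands, WNT5A among them, act through ROR and RYK receptors without beta-catenin. In bone the pathway drives osteoblast formation, and secreted antagonists such as DKK1 restrain it.

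No gene of the 12063 tested passed an adjusted p of 0.05 in any of the 3 comparisons (0% at 6 h against untreated, at 12 h against untreated and at 12 h against 6 h), and so no member did. The smallest adjusted p over all genes in limma was 1.00 in each comparison. At an unadjusted p under 0.05, 1 of the 31 members (LEF1, 3.23%) was found at 6 h against 0.655% of all genes, 0 at 12 h against 0.613%, and 0 between 12 h and 6 h against 0.73%. The values below are therefore descriptions of these arrays. Signals are the deposited MAS5 values, differences are on the log2 scale of those signals with their standard error (SE) from limma, and each value of 3 or 2 arrays is given in the order of the replicate numbers. A probe set's signal has no common scale with that of another gene, so differences between groups were read within a gene. Signals of several genes were set side by side only in the filter, in choosing the brightest members and in summed marker signals. Those uses do not measure relative amounts of RNA, and the sums rest mostly on the brightest probe sets. Both treated groups were set against the same 3 untreated arrays, so the 6 h and 12 h differences are not independent.

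The arrays differed in ways the groups do not explain. Over all probe sets the median signal was 47.5 on 6 h replicate 2, 50.8 on untreated replicate 2 and 14.2 to 24.9 on the other 6, and number 2 is missing at 12 h. The ratio of ACTB signal at the 3′ end over the 5′ end, which rises as RNA degrades, was 2.29 on 12 h replicate 1, 1.73 on 6 h replicate 1 and 1.12 to 1.38 elsewhere. The same ratio for GAPDH differed little, with 1.04 on 12 h replicate 1, 0.978 on 6 h replicate 1 and 0.927 to 1.01 elsewhere. Same-numbered arrays deviated together for numbers 2 and 3 (correlations of 0.492 to 0.637) and only weakly for number 1 (0.108 to 0.163). Every test was therefore also run with replicate number as a blocking factor, though the labels do not say that numbers pair samples. With the block, no gene had an adjusted p under 0.05, and the unadjusted p was under 0.05 in 4.09% of all genes at 6 h, 2.17% at 12 h and 2.46% for 12 h against 6 h. Of the members these were LEF1, CTNNB1 and ROR2 at 6 h (3 of 31, 9.68%), CTNNB1 at 12 h (1 of 31, 3.23%) and DKK1 for 12 h against 6 h (1 of 31, 3.23%). Of the label's defining genes, 11 of 13 osteoblast and osteosarcoma markers were measured and 11 of 11 were bright enough to be tested. Their summed signal was 7243 to 8856 on the untreated arrays, 6658 to 9572 at 6 h and 8789 to 8917 at 12 h. On untreated replicate 1, COL1A1, RUNX2 and SPARC held 3118, 2066 and 2044 of it. The other markers measured were dimmer there: DLX5, ALPL, SP7 and IBSP had 389, 140, 93.3 and 77.4. COL1A2, PTH1R, SPP1 and PHEX had 56.8, 26.3, 18.9 and 14.6, where the median over all probe sets was 22.9.

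LEF1 was the 1 tested member whose treated arrays all lay above the untreated ones. This nuclear factor carries beta-catenin to DNA and is itself a target gene of the pathway. In RNA from a whole culture, as here, more cells that express a gene and more of its RNA per cell cannot be told apart. Its signal was 138, 164 and 152 on the untreated arrays, 286, 234 and 189 at 6 h and 195 and 179 at 12 h. All 5 treated arrays lay above all 3 untreated ones, which held for 1 of 31 members and for 0.953% of all genes, and the opposite held for 0 of the 31 and 0.522% of all genes. At 6 h the mean was 236 ± 48.2, against 151 ± 13.1 in untreated cells (SD, n = 3 each). The difference was 0.63 ± 0.27 (95% interval 0.048 to 1.20), a fold of 1.54, with an unadjusted p of 0.0359 and an adjusted p of 1.00 in limma. With the replicate block the unadjusted p was 0.0153 and the adjusted p 0.831. At 12 h the mean was 187 ± 11.2 (SD, n = 2) and the difference 0.31 ± 0.30, with an unadjusted p of 0.323 in limma.

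LEF1 was above its same-numbered untreated array in every pair, by 1.05, 0.51 and 0.31 at 6 h and by 0.50 and 0.23 at 12 h. That held for 3 of 31 members (LEF1, AXIN1 and ROR2, 9.68%) and for 7.53% of all genes. The widest gap was in the replicate 1 pair at 6 h, and without that 6 h array the difference was 0.48 with an unadjusted p of 0.111. Without both replicate 2 arrays it was 0.68 with an unadjusted p of 0.0434. The 2 other LEF1 probe sets were too dim to be tested. The brighter of them had 1.89, 15.7 and 10.3 on the untreated arrays, 15.7, 69.9 and 16.9 at 6 h and 2.07 and 12.8 at 12 h. The dimmer had 5.10, 45.7 and 3.16 on the untreated arrays, 7.4, 24.9 and 4.84 at 6 h and 5.47 and 12.5 at 12 h. On neither did all treated arrays lie above all untreated ones, and both had their highest value on a replicate 2 array. After low signals were raised to the floor, 4 of 5 treated arrays were above their same-numbered untreated ones on each. The remaining pair was tied at the floor on the brighter and lower on the dimmer. The average over the 3 probe sets put LEF1 at 0.86 at 6 h and at -0.073 at 12 h.

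**Figure D1:**
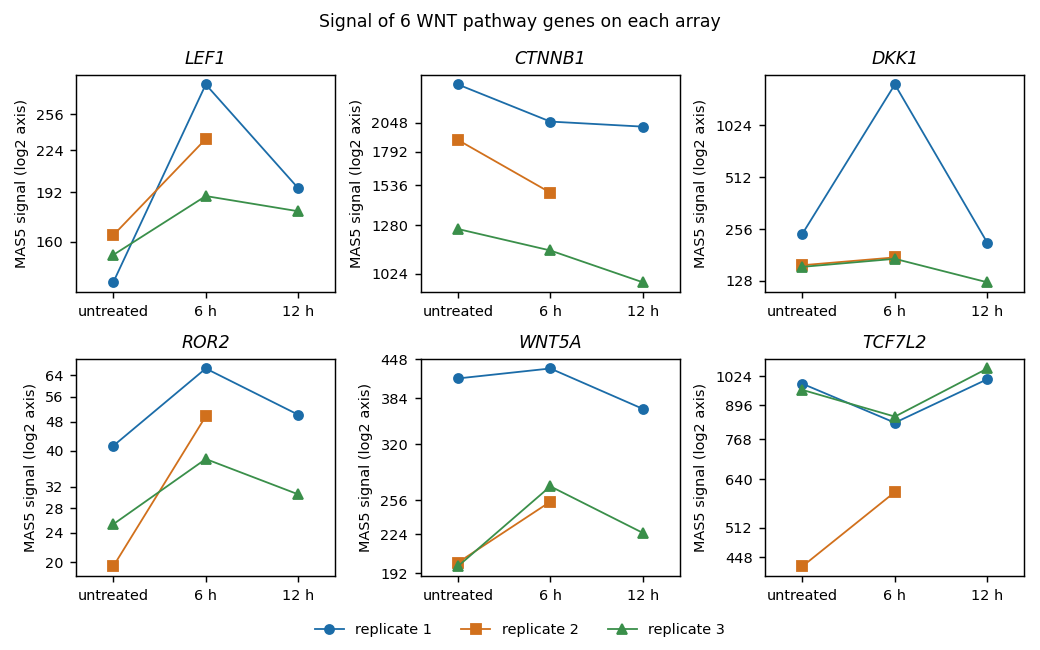
MAS5 signal (vertical log2 axis) of LEF1, CTNNB1, DKK1, ROR2, WNT5A and TCF7L2 on each array, untreated, at 6 h and at 12 h, with lines joining arrays of the same replicate number. LEF1 lies between 179 and 286 on the treated arrays and between 138 and 164 on the untreated ones, whereas DKK1 has 1 array at 1762 and the rest between 126 and 240.1.

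The promoters of LEF1 and DKK1 are shown because these genes have the clearest treated pattern and the largest deviation within a pair among the tested members, and because both are known targets of TCF and LEF factors. Each is the 250 bases before the RefSeq start (GRCh38.p14), 5′ to 3′ on the gene's strand, at chr4:108166302-108166551 (minus strand) for LEF1 and chr10:52314031-52314280 (plus strand) for DKK1. Capitals mark matches to CTTTG followed by AA, AT, TA or TT, forms of the core that TCF and LEF factors recognise, searched on both strands and with no overlap between the forms.
LEF1: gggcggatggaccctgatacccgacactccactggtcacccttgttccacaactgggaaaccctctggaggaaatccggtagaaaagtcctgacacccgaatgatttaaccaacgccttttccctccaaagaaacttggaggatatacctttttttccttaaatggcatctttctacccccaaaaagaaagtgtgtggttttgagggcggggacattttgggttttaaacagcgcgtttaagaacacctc
DKK1: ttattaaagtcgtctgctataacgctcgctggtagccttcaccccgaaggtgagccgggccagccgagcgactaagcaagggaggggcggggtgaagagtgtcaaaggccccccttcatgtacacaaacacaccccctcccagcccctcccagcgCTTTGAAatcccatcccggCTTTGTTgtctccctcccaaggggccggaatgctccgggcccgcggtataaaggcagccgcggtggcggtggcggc
The DKK1 window held 2 matches, starting 95 and 76 bases before the start, and the LEF1 window held none. Over the 34 windows of the 27 members found in the table, 3 held a match (8.82%; DKK1, TCF7 and TCF7L2), against 12.0% of 35116 windows of all genes. The members' windows had a median GC content of 68.4%, against 58.0% over all windows. A match describes these letters only.

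Of the ligands, 3 were tested and none had an unadjusted p under 0.05. WNT5A, the ligand best known for signalling without beta-catenin, had 415, 200.2 and 197 on the untreated arrays, 432, 255 and 271 at 6 h and 368 and 225 at 12 h. The replicate 1 array was the highest in each group, and the groups overlapped. The differences were 0.29 ± 0.35 at 6 h and 0.18 ± 0.39 at 12 h, with unadjusted p of 0.427 and 0.652 in limma. A fainter WNT5A probe set had 68.3, 85.0 and 72.2 on the untreated arrays, 169.6, 74.4 and 91.3 at 6 h and 82.9 and 77.6 at 12 h, with the 6 h replicate 1 array standing above the rest. WNT5B, its closest relative, had 22.0, 33.1 and 28.4 on the untreated arrays, 9.19, 21.9 and 62.3 at 6 h and 47.7 and 43.2 at 12 h. Both 12 h arrays lay above all untreated ones, but the 6 h arrays spanned the lowest and the highest value of the series. The differences were -0.24 ± 0.76 at 6 h and 0.73 ± 0.85 at 12 h, with unadjusted p of 0.758 and 0.411 in limma. The 2 other WNT5B probe sets were too dim to be tested. They differed by -0.40 and -1.29 at 6 h and by -0.52 and -1.48 at 12 h. WNT10B, a ligand that favours osteoblast formation through beta-catenin, had 94.5, 101 and 76.4 on the untreated arrays, 82.1, 75.5 and 95.7 at 6 h and 136 and 74.0 at 12 h. All groups overlapped, and the differences were -0.099 ± 0.34 at 6 h and 0.15 ± 0.38 at 12 h. PORCN, the enzyme that attaches the lipid to WNT ligands, was not analysed here.

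The Frizzled receptors, the membrane proteins that bind WNT ligands, had differences on both sides of 0: 3 of the 7 tested were above it and 4 below at 6 h, 5 and 2 at 12 h. None had an unadjusted p under 0.05. FZD6 had 455, 347 and 355 on the untreated arrays, 377, 374 and 460.1 at 6 h and 335 and 457 at 12 h. Its arrays differed by 1.37-fold at most, with no order by treatment, and the differences were 0.070 ± 0.25 at 6 h and 0.031 ± 0.28 at 12 h. FZD2 had 83.8, 132 and 231 on the untreated arrays, 79.9, 57.2 and 234 at 6 h and 99.9 and 218 at 12 h. Its replicate 3 arrays were high in every group, and the differences were -0.42 ± 0.52 at 6 h and 0.11 ± 0.59 at 12 h. FZD4 had 56.8, 24.8 and 36.7 on the untreated arrays, 59.5, 43.7 and 26.3 at 6 h and 90.8 and 37.0 at 12 h. The highest value was on 12 h replicate 1 while 12 h replicate 3 lay among the untreated arrays, and the differences were 0.13 ± 0.57 at 6 h and 0.64 ± 0.63 at 12 h. FZD1 ran from 192 to 352 over the 8 arrays, FZD3 from 56.0 to 167, FZD5 from 96.3 to 171 and FZD7 from 122 to 349, with overlapping groups in each. The highest FZD3 values, 160.2 at 6 h and 167 untreated, were on the replicate 2 arrays. FZD8 was read only by 3 probe sets shared with another gene and was left out.

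Among the co-receptors, ROR2 was higher at 6 h in values and LRP6, ROR1 and RYK overlapped between groups. ROR2 is a receptor tyrosine kinase family member that binds WNT5A. Its signal was 41.3, 19.5 and 25.3 on the untreated arrays, 66.9, 49.6 and 38.0 at 6 h and 50.1 and 30.5 at 12 h. Each treated array lay above its same-numbered untreated array, by 0.70, 1.35 and 0.59 at 6 h and by 0.28 and 0.27 at 12 h, but 6 h replicate 3 was below untreated replicate 1, so the groups overlapped. At 6 h the difference was 0.88 ± 0.56, with an unadjusted p of 0.142 in limma, or 0.0395 with the block (adjusted p 0.831). At 12 h it was 0.52 ± 0.63, with an unadjusted p of 0.424 in limma. ROR1, its paralogue, ran from 106 to 284 and had its lowest value on 6 h replicate 1, and its differences were -0.34 ± 0.35 at 6 h and 0.019 ± 0.39 at 12 h. RYK, a kinase-like WNT receptor, had 588, 464 and 484 on the untreated arrays, 524, 588 and 479.7 at 6 h and 592 and 483 at 12 h. The arrays overlapped within a 1.27-fold range, and the differences were 0.053 ± 0.23 at 6 h and 0.069 ± 0.26 at 12 h.

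LRP6, the co-receptor through which WNT ligands stabilise beta-catenin, had 169, 143 and 198 on the untreated arrays, 308, 123 and 175 at 6 h and 178 and 242 at 12 h. The 6 h arrays held both the lowest and the highest value, and the differences were 0.16 ± 0.34 at 6 h and 0.30 ± 0.38 at 12 h. LRP5, its paralogue known for setting bone mass, was too dim to be tested. LRP5 had 26.6, 23.9 and 6.28 on the untreated arrays, 20.4, 10.9 and 11.2 at 6 h and 3.85 and 2.14 at 12 h. Both 12 h values lay below all others, in a range where 1 of them was under the floor of 2.385 set for low signals. On its other probe set, also too dim to be tested, LRP5 had 2.58, 33.5 and 12.9 on the untreated arrays, 4.64, 16.6 and 10.7 at 6 h and 2.37 and 11.6 at 12 h, and the 12 h arrays lay among the others or at the low end. No test was made of LRP5.

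DKK1 gave the largest deviation within a pair among the tested members. The protein binds LRP5 and LRP6 and blocks their use by WNT ligands. Its signal was 240.1, 158 and 155 on the untreated arrays, 1762, 175 and 172 at 6 h and 213 and 126 at 12 h. Only 6 h replicate 1 stood out, and the 2 other 6 h arrays lay inside the untreated range. The difference at 6 h was 1.06 ± 0.68, with an unadjusted p of 0.144 in limma, and without that array it was -0.054. At 12 h it was -0.14 ± 0.76, with an unadjusted p of 0.857 in limma. Within the replicate 1 pair the 6 h array was 2.88 above the untreated one, and 1 of 31 members and 1.65% of all genes were 2 or more above in that pair.

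Other genes were also high on 6 h replicate 1. VCAN, a matrix proteoglycan listed among beta-catenin targets, had 1105 on that array and 104 to 217 on the other 7. KRT18, an epithelial keratin, had 2064 there and 342 to 733 on the rest, and SP7, an osteoblast transcription factor, had 272 against 88.8 to 176. The summed signal of the 9 epithelial markers was 641 to 993 in untreated cells, 765 to 2320 at 6 h and 946 to 1002 at 12 h. Of the 9, 3 were bright enough to be tested. KRT18 alone gave 2064 of the 2320. On 6 h replicate 1 EPCAM had 167, against 245 on untreated replicate 1, and KRT8 had 51.7 against 39.6. The ACTB ratio of 6 h replicate 1 was the second highest, and its GAPDH ratio, 0.978, lay within the range of the other arrays. The part of these in the DKK1 value was not tested.

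None of the other secreted antagonists that were tested had an unadjusted p under 0.05. WIF1, which binds WNT ligands directly, had 45.0, 51.4 and 17.6 on the untreated arrays, 92.9, 15.1 and 6.80 at 6 h and 42.6 and 6.82 at 12 h. Its values spread 13.7-fold, and the differences were -0.70 ± 1.07 at 6 h and -1.01 ± 1.20 at 12 h, with unadjusted p of 0.527 and 0.414 in limma. SFRP4, a soluble decoy with a Frizzled-like domain, had 56.9, 66.1 and 16.5 on the untreated arrays, 54.7, 39.2 and 12.8 at 6 h and 33.3 and 17.0 at 12 h. Replicate 3 was the lowest in each group, and the differences were -0.39 ± 0.78 at 6 h and -0.73 ± 0.87 at 12 h. DKK3, a member of the DKK family that does not act on LRP6 as DKK1 does, had 360.4, 129.8 and 281 on the untreated arrays, 315, 142 and 262 at 6 h and 374 and 282 at 12 h. Both replicate 2 arrays were low, and the differences were -0.055 ± 0.40 at 6 h and 0.46 ± 0.44 at 12 h. KREMEN1, a membrane receptor for DKK1, had 30.0, 30.0 and 9.24 on the untreated arrays, 44.2, 43.9 and 13.2 at 6 h and 24.7 and 11.0 at 12 h. Replicate 3 was again the lowest in each group, and the differences were 0.54 ± 0.91 at 6 h and -0.29 ± 1.02 at 12 h. DKK2, a relative of DKK1 that also binds LRP6, was too dim to be tested. Its brighter probe set had 26.7, 86.0 and 27.4 on the untreated arrays, 7.95, 19.1 and 13.3 at 6 h and 3.14 and 24.5 at 12 h. All 5 treated arrays lay below all 3 untreated ones on it, and no share over all genes too dim to be tested was computed. The dimmer had 13.5, 75.6 and 3.30 on the untreated arrays, 34.6, 59.1 and 12.9 at 6 h and 12.9 and 0.469 at 12 h, with 3 of 5 treated arrays below their same-numbered untreated ones. SFRP1 and FRZB were also too dim to be tested, with signals of 1.72 to 108 and 0.440 to 45.1 over the 8 arrays.

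**Figure D2:**
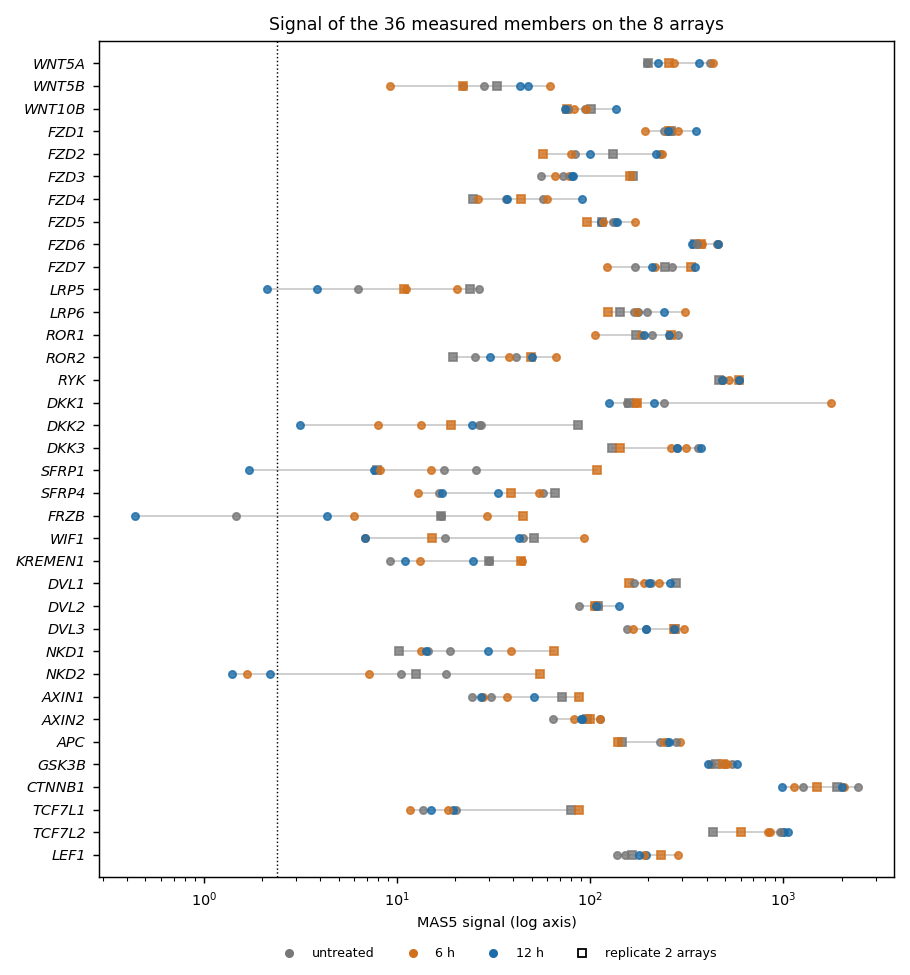
MAS5 signal (horizontal log axis) of the 36 measured members, 1 row per gene in the order ligands, Frizzled receptors, co-receptors, antagonists, transducers, destruction complex and nuclear factors, with grey untreated, orange 6 h and blue 12 h points, squares for the replicate 2 arrays and a dotted line at the floor of 2.385. Points of the 3 groups overlap in most rows, the replicate 2 squares sit apart in TCF7L1 and AXIN1, and positions are comparable within a row only.

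In the cytoplasm, the Dishevelled genes, whose proteins pass the signal from Frizzled to the destruction complex, had no unadjusted p under 0.05. DVL1 ran from 159 to 277, DVL2 from 87.5 to 142 and DVL3 from 156 to 306 over the 8 arrays. Their differences at 6 h were -0.17 ± 0.29 for DVL1, 0.050 ± 0.29 for DVL2 and 0.24 ± 0.32 for DVL3. At 12 h they were 0.10 ± 0.32, 0.28 ± 0.33 and 0.18 ± 0.36 in the same order. NKD1, a feedback inhibitor that binds Dishevelled, had 14.4, 10.2 and 18.8 on the untreated arrays, 38.9, 65.0 and 13.3 at 6 h and 29.4 and 14.1 at 12 h. Replicates 1 and 2 were high at 6 h and replicate 3 was below all untreated arrays but 1, so the groups overlapped. Its differences, 1.20 ± 0.92 at 6 h and 0.54 ± 1.03 at 12 h, had unadjusted p of 0.215 and 0.61 in limma, and its 2 other probe sets were too dim to be tested. NKD2, its paralogue, was too dim to be tested, with 1.40 to 55.3.

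CTNNB1, which encodes beta-catenin itself, was lower on each treated array than on its same-numbered untreated array. Its signal was 2438, 1891 and 1257 on the untreated arrays, 2057, 1485 and 1139 at 6 h and 2009.6 and 985 at 12 h. Replicate 1 was highest and replicate 3 lowest in each group, and the groups overlapped. Within pairs the differences were -0.25, -0.35 and -0.14 at 6 h and -0.28 and -0.35 at 12 h. Being lower in all 5 pairs held for 1 of 31 members (3.23%), against 5.08% of all genes. Without the block the differences were -0.25 ± 0.33 at 6 h and -0.35 ± 0.37 at 12 h, with unadjusted p of 0.469 and 0.355 in limma. With the block they were -0.25 ± 0.10 at 6 h (unadjusted p 0.0444, adjusted p 0.831) and -0.34 ± 0.12 at 12 h (unadjusted p 0.022, adjusted p 1.00). With arrays centred on their median the 12 h difference was 0.23, where the median of all genes was 0.66.

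The 2 fainter CTNNB1 probe sets were lower in 5 of 5 pairs on the dimmer of them and in 4 of 5 on the other. The dimmer had 117, 100.04 and 63.4 on the untreated arrays, 41.6, 84.0 and 56.7 at 6 h and 31.1 and 56.6 at 12 h. On it the replicate 1 pairs were furthest apart, and the difference at 12 h was -1.11, with an unadjusted p of 0.0482 in limma with probe sets taken singly. The other had 153, 131 and 71.4 on the untreated arrays, 122, 85.5 and 66.0 at 6 h and 126 and 72.2 at 12 h, and its replicate 3 array at 12 h was slightly above the untreated one. At 12 h, 1 of 65 member probe sets taken singly had an unadjusted p under 0.05 in limma, as did 221 of all 27306 tested.

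**Figure D3:**
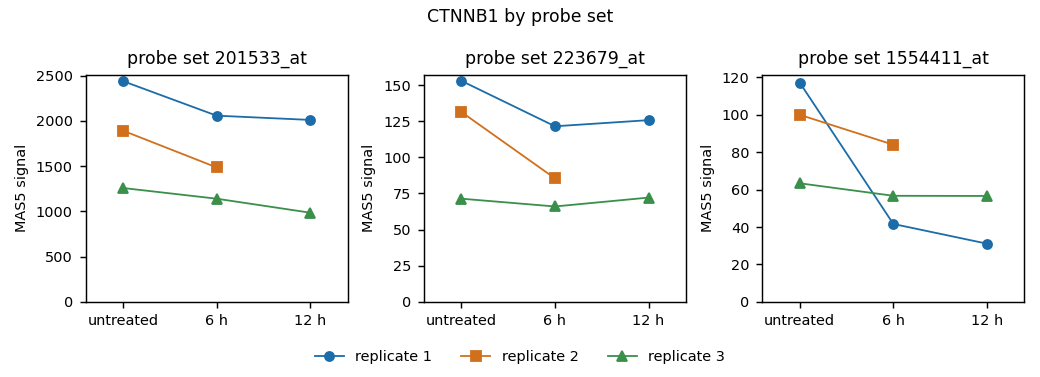
MAS5 signal (vertical axis from 0) of the 3 CTNNB1 probe sets, untreated, at 6 h and at 12 h, with lines joining arrays of the same replicate number. In the left panel, the brightest probe set, and in the right panel each treated point lies below its untreated partner, while in the middle panel replicate 3 has 72.2 at 12 h and 71.4 untreated.

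The destruction complex that marks beta-catenin showed no member with an unadjusted p under 0.05 on its brightest probe set without the block. AXIN2, a scaffold of the complex and a widely used target gene of the pathway, had 112, 96.6 and 64.4 on the untreated arrays, 112, 99.7 and 82.9 at 6 h and 90.8 and 90.1 at 12 h. Both 12 h values lay inside the untreated range, and the differences were 0.14 ± 0.33 at 6 h and 0.027 ± 0.37 at 12 h, with unadjusted p of 0.69 and 0.943 in limma. The 2 fainter AXIN2 probe sets that could be tested differed by -0.14 and 0.027 at 6 h. At 12 h they differed by -1.96 and -0.90, with unadjusted p of 0.12 and 0.392 in limma with probe sets taken singly. AXIN1, the constitutive scaffold, ran from 24.5 to 87.1 and was above its same-numbered untreated array in every pair, by 0.28, 0.29 and 0.19 at 6 h and by 0.75 and 0.15 at 12 h. Its groups overlapped, with both replicate 2 arrays high, and the differences were 0.25 ± 0.63 at 6 h and -0.013 ± 0.70 at 12 h. GSK3B, the kinase, had 492, 450.2 and 542 on the untreated arrays, 422, 488 and 509.6 at 6 h and 409 and 574 at 12 h. Its groups overlapped, and the differences were -0.064 ± 0.24 at 6 h and -0.026 ± 0.27 at 12 h. Of its 3 fainter probe sets that could be tested, 2 had differences below 0 at both times. The other had 87.9, 33.6 and 66.0 on the untreated arrays, 141, 118 and 87.4 at 6 h and 106 and 119.7 at 12 h. Each treated array was above its same-numbered untreated array on it, with differences of 0.97 at 6 h and 0.95 at 12 h and unadjusted p of 0.0366 and 0.0603 in limma with probe sets taken singly. APC, the other scaffold, ran from 139 to 291 with differences of 0.012 ± 0.33 at 6 h and 0.26 ± 0.37 at 12 h. A fainter APC probe set differed by -1.99 at 12 h against 6 h, with an unadjusted p of 0.0291 in limma with probe sets taken singly. The 2 other fainter ones tested differed by -0.56 and 0.12, and the brightest by 0.25. In that fit the unadjusted p was under 0.05 for 2 of 65 member probe sets at 6 h. It was for 1 at 12 h and 1 at 12 h against 6 h. Of all 27306 probe sets tested, 172, 221 and 243 had such a p in the same order.

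Of the nuclear factors beside LEF1, TCF7L2 was brighter at 12 h in values. It is a TCF factor known for driving beta-catenin target genes in the intestine. TCF7L2 had 989, 429.8 and 961 on the untreated arrays, 828, 603 and 851 at 6 h and 1009.5 and 1059.9 at 12 h. Both 12 h arrays lay above all untreated and all 6 h arrays, and both replicate 2 arrays, which have no partner at 12 h, were the lowest of their groups. The difference at 12 h was 0.48 ± 0.35, with an unadjusted p of 0.195 in limma, and with the block it was 0.20 ± 0.19. At 6 h it was 0.019 ± 0.31. Of its 5 fainter probe sets that could be tested, 3 had a difference of the same sign at 12 h. TCF7L1, a factor known mainly as a repressor, had 20.2, 79.5 and 13.7 on the untreated arrays, 11.6, 87.1 and 18.3 at 6 h and 19.5 and 14.9 at 12 h. Its replicate 2 arrays stood far above the rest, and the differences were -0.082 ± 0.97 at 6 h and -0.72 ± 1.08 at 12 h. TCF7, the remaining factor of the family, was not analysed here.

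At 6 h, 1 of the 31 tested members lay wholly above untreated (LEF1, 3.23%; 2.03% of all genes) and 0 wholly below (1.51% of all genes). At 12 h, 3 tested members lay wholly above untreated (WNT5B, TCF7L2 and LEF1, 9.68%; 9.6% of all genes) and 0 wholly below (4.89% of all genes). At 12 h against 6 h, 2 tested members lay wholly above (TCF7L2 and DVL2, 6.45%; 7.1% of all genes) and 0 wholly below (4.5% of all genes). At 12 h the shares of tested members lying above were close to those of all genes. Members too dim to be tested are not in these counts. On their brightest probe sets, DKK2 lay wholly below untreated at both times and LRP5, SFRP1 and NKD2 at 12 h. The dimmer SFRP1 probe sets differed by 0.26, -0.58 and -0.97 at 12 h. No share over all genes too dim to be tested was computed, so these members cannot be set against other dim genes. Without the filter, the median difference of all 19775 genes at 12 h was -0.082, against 0.083 for the genes tested. The share of probe sets at the floor was 7.88% and 20.8% at 12 h, against 6.79%, 0.0623% and 19.2% untreated.

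**Figure D4:**
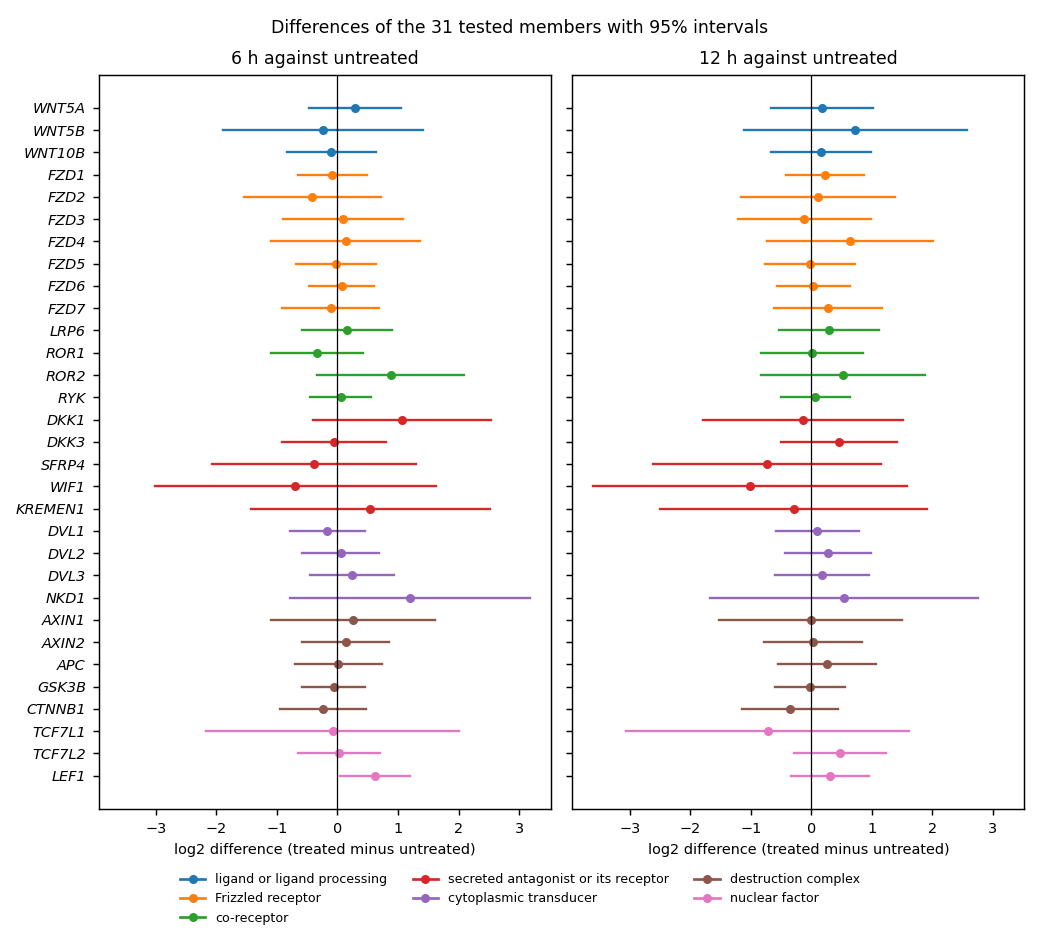
Log2 difference of the 31 tested members (horizontal axis) at 6 h and at 12 h against untreated, coloured by role, as points with 95% intervals from limma. The interval of LEF1 at 6 h, 0.048 to 1.20, is the 1 of all those drawn that does not reach 0.

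The members' medians lay close to those of all genes tested. At 6 h their median difference was 0.019 with 17 of 31 above 0 (54.8%), against 0.022 and 53% for all genes tested. At 12 h it was 0.11 with 21 of 31 above 0 (67.7%), against 0.083 and 59.9%. By role at 12 h, all 3 ligands, all 4 co-receptors and all 4 transducers tested were above 0 and 4 of 5 antagonists, counting KREMEN1, below, with medians of 0.18, 0.18, 0.23 and -0.29. This pattern depended on single arrays. With 1 array left out, the lowest values were -0.17 for WNT5A, -0.28 for WNT10B, -0.20 for ROR1, -0.079 for RYK, -0.080 for DVL1 and -0.063 for DVL3. The highest were 0.24 for DKK1, 0.31 for WIF1 and 0.29 for KREMEN1. On their brightest probe sets, the members too dim to be tested were all below 0, among them LRP5 (-2.39) and NKD2 (-2.48). Centring each array on its median put 28 of 31 members above 0 at 12 h, and moved the median of all genes by the same amount as that of the members. Within pairs, the members' medians were 0.057, 0.11 and 0.020 at 6 h and 0.072 and 0.082 at 12 h, against 0.037, 0.034, 0.0079, 0.063 and 0.0096 for all genes in the same order.

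**Figure D5:**
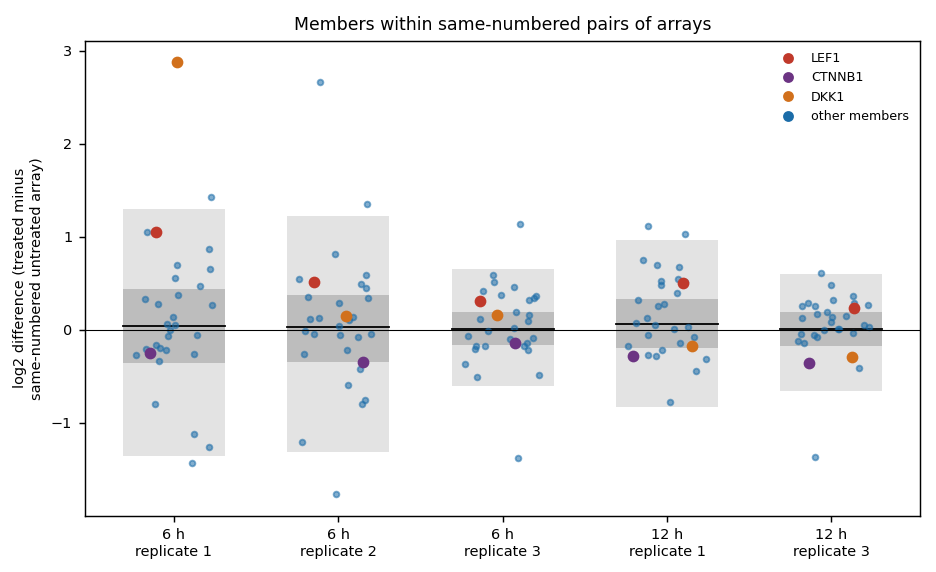
Log2 difference of each tested member between a treated array and its same-numbered untreated array (points, LEF1 red, CTNNB1 purple, DKK1 orange), over bars that span the middle 50% (dark grey) and 90% (light grey) of all 12063 genes, with their median as a black line. Most members lie inside the bars, and DKK1 in the 6 h replicate 1 pair lies at 2.88.

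Between the 2 treatment times, 16 of 31 members were higher and 15 lower at 12 h than at 6 h, with a median difference of 0.0045 against 0.061 for all genes. The largest positive values were those of WNT5B (0.97 ± 0.85), FZD2 (0.53 ± 0.59) and DKK3 (0.52 ± 0.44). The largest negative ones were those of DKK1 (-1.20 ± 0.76), KREMEN1 (-0.84 ± 1.02) and NKD1 (-0.66 ± 1.03). For DKK1 the unadjusted p was 0.139 in limma and 0.0336 with the block (adjusted p 0.972), and without 6 h replicate 1 the difference was -0.086. LEF1 was -0.32 ± 0.30 and CTNNB1 -0.11 ± 0.37.

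Genes of the wider pathway gave no call either. Of 43 known beta-catenin target genes, 32 were tested and 0 passed in either direction. At 6 h 14 of the 32 were above 0 (43.8%, median -0.0062), against 53% of all genes tested. At 12 h 20 of 32 were (62.5%, median 0.099), against 59.9%. NOTUM, an enzyme that strips the lipid from WNT ligands and a target of the pathway, had 176, 174 and 216 on the untreated arrays, 407, 214 and 264 at 6 h and 314 and 268 at 12 h. Every treated array was above its same-numbered untreated array, but 6 h replicate 2 lay under untreated replicate 3. The differences were 0.60 ± 0.29 at 6 h (unadjusted p 0.0571 in limma) and 0.63 ± 0.32 at 12 h (unadjusted p 0.0721 in limma). TNFRSF11B, which encodes the bone-sparing decoy receptor osteoprotegerin and also stands among the targets, had 183, 107 and 122 on the untreated arrays, 70.3, 80.8 and 98.0 at 6 h and 126 and 84.1 at 12 h. All 6 h arrays lay below all untreated ones, as for 1.51% of all genes, and the difference at 6 h was -0.70 ± 0.33 (unadjusted p 0.056 in limma).

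Of 46 further cytoplasmic and nuclear components, 42 were tested and 0 passed in either direction. At 6 h 28 of them were above 0 (66.7%, median 0.12) and at 12 h 34 (81.0%, median 0.18). For all genes tested the shares were 53% (median 0.022) and 59.9% (median 0.083). TNKS, a tankyrase whose activity promotes loss of AXIN, had 85.4, 58.9 and 105 on the untreated arrays, 189, 134 and 117 at 6 h and 98.5 and 113 at 12 h. All 6 h arrays lay above all untreated ones, as for 2.03% of all genes. The difference at 6 h was 0.83 ± 0.33 (unadjusted p 0.0268, adjusted p 1.00 in limma). TNKS2, its paralogue, had 436, 332 and 337 on the untreated arrays, 397, 419 and 440.3 at 6 h and 489.5 and 581 at 12 h. Both 12 h arrays lay above all untreated ones, as for 9.6% of all genes, and the difference at 12 h was 0.55 ± 0.26 (unadjusted p 0.0594 in limma). CTNNBIP1, which keeps beta-catenin from binding TCF factors, had 44.1, 39.4 and 21.6 on the untreated arrays, 86.4, 93.7 and 30.3 at 6 h and 59.9 and 26.4 at 12 h. At 6 h its difference was 0.90 ± 0.59 (unadjusted p 0.151 in limma), and replicate 3 overlapped the untreated arrays. CHD8, a chromatin remodeller that binds beta-catenin, was at 0.54 ± 0.32 at 6 h and 0.68 ± 0.36 at 12 h.

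Among 41 other ligands, secretion factors and surface regulators, 17 were tested and 0 passed. Above 0 were 8 of the 17 at 6 h (47.1%) and 7 at 12 h (41.2%), against 53% and 59.9% of all genes tested. LGR5, a receptor for R-spondins, had 62.8, 33.8 and 35.7 on the untreated arrays, 2.18, 60.1 and 32.3 at 6 h and 45.1 and 29.5 at 12 h. RNF43, a ligase that removes Frizzled from the membrane, had 49.5, 103 and 42.3 on the untreated arrays, 7.10, 69.1 and 56.0 at 6 h and 62.8 and 52.4 at 12 h. In both, 6 h replicate 1 was far below the other arrays. Of 35 genes of the planar polarity and calcium arm, 31 were tested and 0 passed, with 20 above 0 at 6 h (64.5%) and 21 at 12 h (67.7%). PTK7, a co-receptor of that arm, had 150.2, 226 and 146 on the untreated arrays, 109.96, 219.96 and 164 at 6 h and 288 and 212 at 12 h, and its difference at 12 h against 6 h was 0.64 ± 0.36 (unadjusted p 0.0996 in limma). The summed signal of the 6 measured blood cell markers was 69.7 to 201 in untreated cells, 67.4 to 270.2 at 6 h and 54.0 to 108 at 12 h, with 3 bright enough to be tested. That of the 6 endothelial markers was 60.3 to 235 in untreated cells, 40.8 to 314 at 6 h and 75.8 to 126 at 12 h, with 1 bright enough to be tested.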

How the data were processed

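The authors deposited 1 linear intensity per probe set and array. The submitters' processing notes name MAS5 as the source of these signals, without version or settings, and the labels' protocols describe cRNA carrying biotin. This method scales each array to a common level, and the 2% trimmed mean was 100.01 on all 8 arrays. The number of arrays limits the precision.

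Gene names came from the platform annotation: 41091 of 54675 probe sets had 1 symbol, 1801 had several and were left out, and 11721 were not listed. Each gene was read from its brightest probe set. Signals under 2.385, the 10th percentile, were raised to that value ahead of the log2 step, which understates differences of dim genes. Genes with a mean log2 signal above 4.216, the median of all probe sets, were tested, which left 12063. Tests used R 4.3.3 and limma 3.58.1 (lmFit and trended eBayes) on all 3 groups together. P-values were two-sided, with Benjamini-Hochberg adjustment across the tested genes. The threshold was 0.05.

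The members, the gene lists, the tests and the alternatives were chosen with earlier results of these data known. Values in every array are given for the ligands, LRP5, LRP6, CTNNB1, AXIN2, LEF1, NKD1 and DKK1. They are also given for tested members with an unadjusted p under the threshold, for those whose untreated values overlap neither treated group, for the 5 brightest, and for the 3 largest positive and negative differences of each comparison. Of each other list, up to 4 genes with the smallest p in a comparison could be named. KRT18 and SP7 were among these.

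Deviations from the group means correlated at 0.108 to 0.637 between same-numbered arrays (7 pairs). For the 14 other pairs of different groups the range was -0.576 to 0.333, which takes in the number 1 values of 0.108 to 0.163. The deviations of the 2 arrays at 12 h mirror each other, so these values are not independent. Each number was read as a pair mark, which the labels do not state. The fit without the block gave the values printed unless the block is named. Alternatives were quantile normalization, centring on the median, a floor of 1, a pseudocount of 32, no filter or a stricter one (75th percentile), probe sets averaged or taken singly, no variance trend, only the groups compared, the replicate block, array weights, and arrays left out. Promoter sequences are from RefSeq (GRCh38.p14), and no entry was found for FZD2, FZD3, FZD6, FZD7, LRP6, WNT10B, DKK2, DKK3, SFRP1, KREMEN1, AXIN2 and NKD1.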

Additional observations from a re-analysis of the deposited data

Results flagged for a closer look

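DKK1 had opposite directions at the 2 treatment times: all 3 arrays at 6 h were above their same-numbered untreated arrays, and both arrays at 12 h were below theirs. The difference at 12 h against 6 h was -1.2 (log2), with an unadjusted p of 0.139 in limma, so it did not pass the test, and without 6 h replicate 1 it was -0.086. The same opposite pattern was found in 1 of 31 members (3.23%) and in 315 of 12063 genes (2.61%).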

How the results depend on the processing

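Across 22 alternatives no member had an adjusted p under 0.05. The members' median difference at 12 h, 0.11, was 0.69 with arrays centred on the median, where all genes stood at 0.66, and at 12 h against 6 h it was 0.59, against 0.65 for all genes. With 1 array left out at a time, the median ran from -0.017 to 0.29 at 12 h and from -0.13 to 0.18 at 12 h against 6 h, the highest of each being without 12 h replicate 3. Genes with an unadjusted p under 0.05 numbered 79 at 6 h, 74 at 12 h and 88 at 12 h against 6 h. With the replicate block they numbered 493, 262 and 297 in the same order, and over all alternatives 45 to 581, 34 to 634 and 33 to 599, with the smallest adjusted p, 0.296, under array weights at 12 h. The block changed no call at the adjusted threshold. LEF1 at 6 h stayed above 0 in all 22 alternatives (0.48 to 0.86), with an unadjusted p under 0.05 in 13 of them. CTNNB1 at 6 h stayed below 0 in all 22 (-0.53 to -0.025), and at 12 h it was above 0 in 2. The sign held in every alternative in which the member was tested for 5 of 31 members at 6 h, 7 at 12 h and 10 between the treatment times. Some of these did not pass the filter of every alternative, among them NKD1 and WNT5B, each tested in 20 of the 22. Signal near the floor limits LRP5, DKK2, SFRP1, FRZB and NKD2.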
